A study of Mus musculus with 4 samples.

Results

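Predicted genes that still carry placeholder symbols were examined in the coding variant lists of 4 mouse tumour cell lines. Members were all listed variants whose gene symbol was Gm followed by a number, or began with LOC, each position and new base being counted once per list. They made up 215 of the 2013 entries in the lists, and because some recurred they stood at 128 of the 1844 distinct sites, in 83 genes (63 Gm and 20 LOC symbols). The rule picks symbols by name and uses no read count, but it was set with earlier results of these data known. Gm15433 and LOC101055758, which also fit the name, were left out.

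Both YUMM 1.1 and YUMM 1.3 come from melanomas of genetically engineered mice. UV YUMM 1.1-9 is taken by the heading of its list as a derivative of YUMM 1.1. Its sample title names UV (ultraviolet light) but gives no dose or time of exposure. MB49 is a carcinogen-derived bladder carcinoma line. Each line was sequenced as 1 exome library, with no replicate, no normal tissue sample among the libraries used here, and no genotype, passage or clone given in the labels. The labels call the source tumours but describe DNA taken from cell lines. Their protocol text also tells of MB49 cells injected into tamoxifen-treated mice with induced Atg7 deletion, and does not say whether that bears on these libraries. It names the cells as male and of the C57Bl/6J strain, and the extraction text leaves YUMM 1.3 unnamed. The list headed MB49 was matched to the sample labelled 49XC-49 by elimination. The UV YUMM 1.1-9 list differs in kind, because it holds only changes additional to YUMM 1.1.

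A Gm number is the symbol given to a predicted mouse gene before it has a functional name, and a LOC number is a database identifier used in the same way. Many such genes belong to families that expanded by tandem duplication, in which neighbouring copies keep nearly the same sequence. Families of this sort in the mouse include Speer4, whose members encode glutamate-rich proteins of developing sperm, Pramel, a leucine-rich repeat family active in germ cells and early embryos, the Spin2 spindlins of the X chromosome, the signal regulatory proteins Sirpb1, and KRAB zinc finger genes. A short read from such a family may align equally well to several copies.

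Of the 83 symbols, 75 were found in the RefSeq annotation of GRCm38.p6 by symbol, gene identifier or synonym. RefSeq gave 62 of them as protein coding, 9 as pseudogenes, 2 as transcribed pseudogenes and 2 as long noncoding RNAs. For 13 the current symbol was no longer a placeholder, so that LOC100038947 is now Sirpb1c, LOC108168466 is Spin2f, Gm13154 is the zinc finger gene Zfp985, Gm21951 is Btbd35f21, Gm3139 is Pramel42 and Gm13084 is Pramel26. The placeholder symbol therefore does not mark one kind of gene. Usf3 (listed as Gm608), a transcription factor gene, and Tmem267 (listed as Gm7120), a transmembrane protein gene, were members too. At 7 of the 128 member sites the position lay outside the RefSeq interval of the matched gene, among them Gm8700 V64E and Gm21811 A45=.

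The label of these genes as multicopy was checked with the 300 bases around each RefSeq gene start, from 250 before to 50 after it. A near-copy was a match of at least 90% identity over at least 200 bases in the same window of another gene. Of the 60 members with a window, 40 had a near-copy (66.7%, exact 95% interval 53.3 to 78.3), against 131 of the 1229 listed genes with one (10.7%). Among members with a site in more than 1 list it was 24 of 26, and among members with sites in 1 list it was 16 of 34. The symbols Gm21115 and LOC105242401 were matched to the same window, and both are counted, the former among the 24 and the latter among the 16. The sites listed as Gm21115 lie in Gm6605, so their near-copy state was taken from the window of another gene. For olfactory and vomeronasal receptor genes (Olfr and Vmn symbols) it was 42 of 142, and for Zfp genes 3 of 21. The other 20 members with a window, among them Zfp985 and Spopfm2 (listed as Gm10696), had no near-copy, so by this measure the word multicopy did not hold for every member. Among the 20, Gm8700 had its site outside the interval of its matched gene. How far a near-copy at the gene start reflects the coding sequence at a listed site was not tested.

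The stretches below, of 80 bases each, are printed because the deepest member sites and many of the repeated ones lie in genes of these 4 groups. All were taken from RefSeq windows upstream of the gene start (GRCm38.p6), are written 5′ to 3′ on the strand given, and show in capitals the bases that differ from the first of their group. For each later gene of a group, the stretch most like the first was taken, without gaps, so distances from the gene start vary. The Speer4a stretch was itself picked as most like that of Speer4c. Identities counted over these stretches are therefore best-case values. The first group holds Speer4-like genes of chromosome 5, headed by Speer4c; Gm21083 is the current symbol of LOC105242399.
Speer4c (chr5:15714332-15714411, minus strand): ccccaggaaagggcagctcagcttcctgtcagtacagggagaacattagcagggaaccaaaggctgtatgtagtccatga
Gm21190 (chr5:15529348-15529427, minus strand): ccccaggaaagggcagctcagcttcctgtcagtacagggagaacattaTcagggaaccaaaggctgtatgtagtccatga
Gm10354 (chr5:14979005-14979084, minus strand): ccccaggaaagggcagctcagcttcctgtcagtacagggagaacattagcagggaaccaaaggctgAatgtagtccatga
Gm17019 (chr5:15033068-15033147, minus strand): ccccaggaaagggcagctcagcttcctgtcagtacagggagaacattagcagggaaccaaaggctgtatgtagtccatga
Gm21083 (chr5:15577128-15577207, plus strand): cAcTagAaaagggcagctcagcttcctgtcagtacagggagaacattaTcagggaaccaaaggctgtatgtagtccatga

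Gm17019 was identical to Speer4c over these 80 bases, Gm21190 and Gm10354 each differed from it at 1 base, and Gm21083 at 4. A second set lies about the gene Speer4a, farther along chromosome 5.
Speer4a (chr5:26039613-26039692, minus strand): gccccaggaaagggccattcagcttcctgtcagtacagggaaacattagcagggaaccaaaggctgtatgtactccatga
Gm1979 (chr5:26004857-26004936, minus strand): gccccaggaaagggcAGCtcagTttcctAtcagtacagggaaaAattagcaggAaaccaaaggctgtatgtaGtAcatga
Gm10220 (chr5:26121480-26121559, minus strand): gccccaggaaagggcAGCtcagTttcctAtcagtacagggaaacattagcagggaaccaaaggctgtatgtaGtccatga

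Here Gm1979 matched Speer4a at 71 of the 80 bases and Gm10220 at 74. All 12 Speer4-like members of the chromosome had 21 near-copies each over the whole window. The third group comes from chromosome 7, where Gm6605 and Gm21136 were identical and Gm21115 (the current symbol of LOC105242401) differed at 4 bases.
Gm6605 (chr7:38452280-38452359, minus strand): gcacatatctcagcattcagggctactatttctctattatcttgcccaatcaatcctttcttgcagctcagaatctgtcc
Gm21136 (chr7:38869854-38869933, minus strand): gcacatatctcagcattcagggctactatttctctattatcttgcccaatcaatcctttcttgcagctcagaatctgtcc
Gm21115 (chr7:38725606-38725685, minus strand): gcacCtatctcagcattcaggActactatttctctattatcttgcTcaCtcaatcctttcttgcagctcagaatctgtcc

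The fourth pair comes from the X chromosome, where Spin2f differed from Gm46683 at 1 base.
Gm46683 (chrX:33778599-33778678, minus strand): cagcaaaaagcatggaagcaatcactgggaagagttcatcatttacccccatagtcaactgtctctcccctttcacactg
Spin2f (chrX:31254531-31254610, plus strand): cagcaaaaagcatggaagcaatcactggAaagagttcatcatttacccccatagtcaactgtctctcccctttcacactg

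Members were read more deeply than the lists as a whole. Median depth at member sites was 208 reads in YUMM 1.1, 236 in YUMM 1.3, 167 in MB49 and 60 in UV YUMM 1.1-9. Over all sites of the same lists the medians were 70, 107, 59 and 45. Interquartile ranges of the members ran from 80.0 to 344 reads in YUMM 1.1, from 108 to 332 in YUMM 1.3, from 62.8 to 248 in MB49 and from 47.3 to 150 in UV YUMM 1.1-9. The member ranges thus overlapped those of all sites, and members were found from 10 reads (LOC100504180 M583R in MB49) up to 2146.

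Depth of at least 2 times the list median was reached by 37 of 65 members in YUMM 1.1, where 25.9% of all sites reached it. In YUMM 1.3 it was 33 of 60 against 30.2%, in MB49 43 of 72 against 22.5%, and in UV YUMM 1.1-9 7 of 18 against 9.65%. Olfr and Vmn sites had medians of 133, 187.5 and 120.5 reads in YUMM 1.1, YUMM 1.3 and MB49, between those of the members and of all sites, and of 82 reads in UV YUMM 1.1-9, above both. The few Zfp sites had lower medians than the members in every list, of 67, 45, 21 and 54.

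The deepest member sites were in Speer4-like genes of chromosome 5. Gm10354 Y91= (position 14977588, the = sign marking a synonymous change) was covered by 2146 reads in YUMM 1.1 and 1903 in YUMM 1.3 and was in neither of the other lists. Gm17019 R88C (position 15031662) had 1791 reads in YUMM 1.1 and 1346 in MB49. Gm21190 P242L (position 15524894) had 1353 reads in YUMM 1.1, 1135 in YUMM 1.3 and 937 in MB49. In UV YUMM 1.1-9 the deepest member was a synonymous site of Gm13212, at 268 reads, which was also the deepest site of that whole list.

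**Figure D1:**
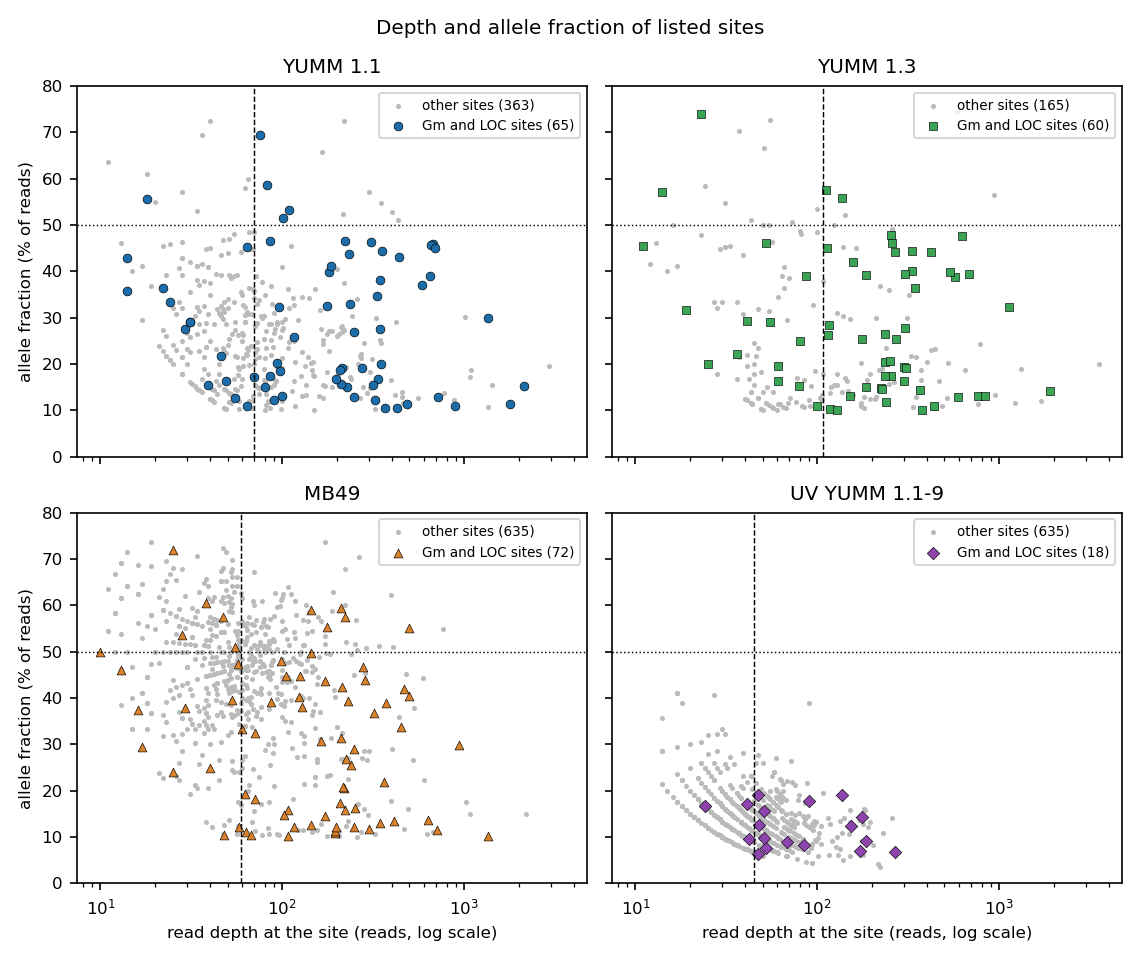
Read depth (log scale) against allele fraction (percent of reads) for every listed site of each line, with Gm and LOC sites coloured and other sites grey; the dashed line is the list's median depth and the dotted line 50%. Member sites lie mostly to the right of the median line and mostly below 50%, and in UV YUMM 1.1-9 all 18 lie below 20%.

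Depth went with the near-copies at the gene start. The 143 entries of members with a near-copy had a median depth of 2.92 times the list median, and 96 of them were at 2 times or more. The 29 entries of members without one had a median of 1.20 times, with 11 at 2 times or more, and the 43 entries of members with no window a median of 1.37. Over all sites the ratio was 2.76 with a near-copy (281 entries) and 0.927 without (1292 entries), both counts including the members. In YUMM 1.3 the members without a near-copy were only 3 entries and had a median ratio of 3.21, above the 2.36 of the 47 with one. Entries are not independent, since sites of a gene share its copies and the same site may be listed in several lines. Those listed as Gm21115 were placed by the window of LOC105242401.

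**Figure D2:**
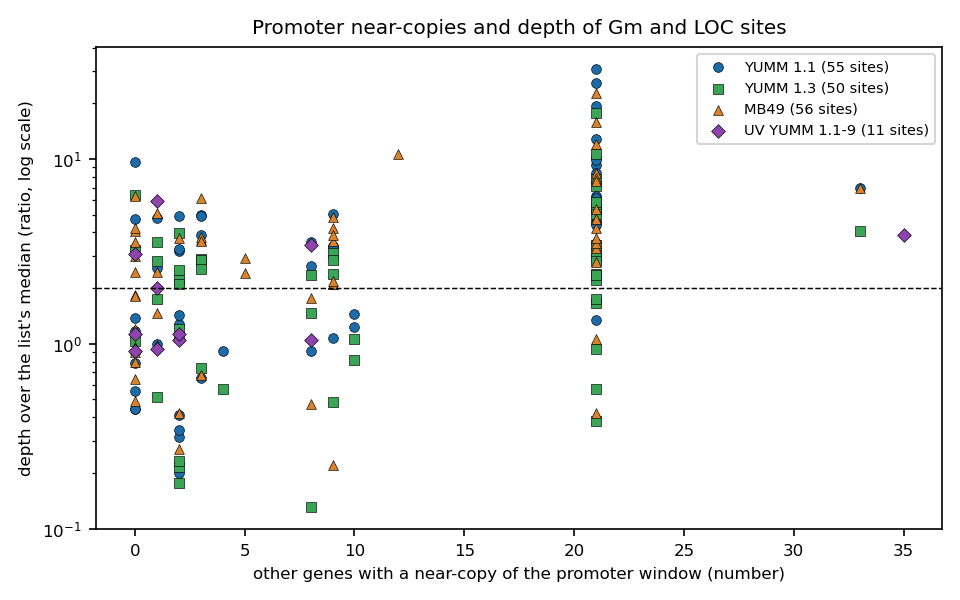
Depth of each Gm and LOC site over its list's median (log scale, dashed line at 2) against the number of other genes with a near-copy of the promoter window, for members with a window. The column of points at 21 near-copies holds the Speer4-like genes of chromosome 5, which reach the highest ratios, while members with no near-copy also reach above 2.

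Allele fraction is the share of reads at a site that carry the new base. Its median over members was 27.6% in YUMM 1.1, 25.9% in YUMM 1.3, 31.0% in MB49 and 11.1% in UV YUMM 1.1-9. Over all sites of the lists it was 24.9%, 19.4%, 45.7% and 13.5%. Members thus sat near the middle of the lists of both YUMM lines and below the middle of the MB49 list. The lowest member fractions of the single-line lists, 10.4%, 10.1% and 10.2% for YUMM 1.1, YUMM 1.3 and MB49, lie just above the 10% under which these lists hold no site.

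A fraction of 50% is what a change on 1 of 2 copies would give. Sites on the X and Y were tested against it too, although in cells named as male it is not the level expected there. The test was a two-sided exact binomial test with Benjamini-Hochberg adjustment over all sites of a list. By it, 51 of 65 members were below 50% in YUMM 1.1, beside 79.7% of all sites. In YUMM 1.3 it was 45 of 60 beside 75.1%, which is the share of the list itself. In UV YUMM 1.1-9 it was 18 of 18 beside 97.2%. In MB49 it was 43 of 72 beside 22.6%, the only list in which the members' share and that of the list lay far apart. Among sites of at most 200 reads, adjusted over these alone, members below 50% numbered 21 of 32 in YUMM 1.1, where 77.2% of all such sites were below. In YUMM 1.3 it was 17 of 27 beside 69.5%, and in MB49 19 of 42 beside 15.8%. Among sites over 200 reads, a class added after the data were seen, it was 30 of 33 beside 89.0%, 28 of 33 beside 87.3% and 25 of 30 beside 73.8% in the same order, so that in MB49 the members' share lay nearer to that of the list among deep sites.

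Member sites above 50% by the same exact test numbered 1 in each single-line list, that is 1 of 65, 1 of 60 and 1 of 72, where 1.4% of all sites in YUMM 1.1, 2.67% in YUMM 1.3 and 1.98% in MB49 were called. The members' counts were thus near the share of the lists themselves. Gm21136 G577= on chromosome 7 was at 69.3% in YUMM 1.1 (52 of 75 reads, 57.6 to 79.5, exact test, adjusted p = 0.00173) and at 46.2% in YUMM 1.3 (24 of 52 reads). Sirpb1c I268N was at 73.9% in YUMM 1.3 (17 of 23 reads, 51.6 to 89.8, exact test, adjusted p = 0.0449) and at 36.4% in YUMM 1.1 and 37.5% in MB49. Gm8369 L15= on chromosome 19 was at 59.3% in MB49 (124 of 209 reads, 52.3 to 66.1, exact test, adjusted p = 0.0354). Gm5591 A481S, at 72.0% in MB49, had the highest fraction among the members of that list but only 25 reads and did not pass.

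On the X chromosome the 20 member entries ranged from 12.2% to 44.8%, none of them above 50%. In cells named as male, 50% is not the level expected of a change on the X or Y. The highest was Btbd35f21 S125= in MB49 and the lowest Gm21608 N77= in the same line. On the Y chromosome Gm21693 A241T had 29 of 64 reads in YUMM 1.1, 8 of 14 in YUMM 1.3 and 15 of 28 in MB49, and Gm20899 V117F had 5 of 17 in MB49.

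Members recurred between lists. Of the 128 sites, 31 were in all 3 single-line lists, 25 in 2 and 72 in 1. Of the 25, 18 were shared by YUMM 1.1 and YUMM 1.3, 3 by YUMM 1.1 and MB49 and 4 by YUMM 1.3 and MB49. In all, 56 of the 116 sites that stood in more than 1 list were members. Per list this was 52 of 65 members in YUMM 1.1 (80.0%, exact interval 68.2 to 88.9), where 25.2% of all sites recurred. In YUMM 1.3 it was 53 of 60 (88.3%, 77.4 to 95.2) beside 46.7%, and in MB49 38 of 72 (52.8%, 40.7 to 64.7) beside 10.2%. No member of the UV YUMM 1.1-9 list was in another list, and no other site of that list was either; it holds only changes additional to YUMM 1.1.

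Among the members alone, repeated sites were deeper than unrepeated ones in YUMM 1.1 (median 224 against 80.0 reads) and MB49 (209 against 127) and close in YUMM 1.3 (236 against 226, with only 7 unrepeated). Of the 31 sites in all 3 lists, 19 were at 2 times the list median or more in every list. The same count was not made over the 53 sites of any symbol that stood in all 3 lists. Olfr and Vmn sites recurred in 6 of 37, 6 of 18 and 2 of 76 cases in YUMM 1.1, YUMM 1.3 and MB49.

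Repeated sites kept much the same allele fraction from line to line. Over the 31 sites the range between the 3 lines had a median of 4.89 percentage points, beside 4.35 over all sites in 3 lists, and reached 52.0 points at most. Gm21190 P242L was at 29.9% in YUMM 1.1 (405 of 1353 reads, exact interval 27.5 to 32.5), 32.2% in YUMM 1.3 (366 of 1135) and 29.9% in MB49 (280 of 937). Gm21190 T136N, in the same gene, was at 10.9%, 13.2% and 11.6% (98 of 896, 101 of 765 and 82 of 707 reads). The 2 sites of 1 gene thus lay far from each other and near to themselves across lines.

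Levels differed widely between the repeated sites. The mean fraction over the 3 lines was under 20% at 6 sites, from 20% to under 35% at 10, from 35% to under 50% at 12, and 50% or more at 3. Gm1979 G218R was among the higher, at 46.3%, 47.8% and 46.6% in YUMM 1.1, YUMM 1.3 and MB49 (143 of 309, 122 of 255 and 130 of 279 reads). Gm21680 K137N, within the same stretch of chromosome 5, was at 15.5%, 19.4% and 16.3% (49 of 316, 58 of 299 and 41 of 251 reads). LOC102640292 R476S, which lies within the annotated span of the long noncoding RNA gene Snhg14, was near 50% in all 3 (53.2%, 55.9% and 48.0%).

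**Figure D3:**
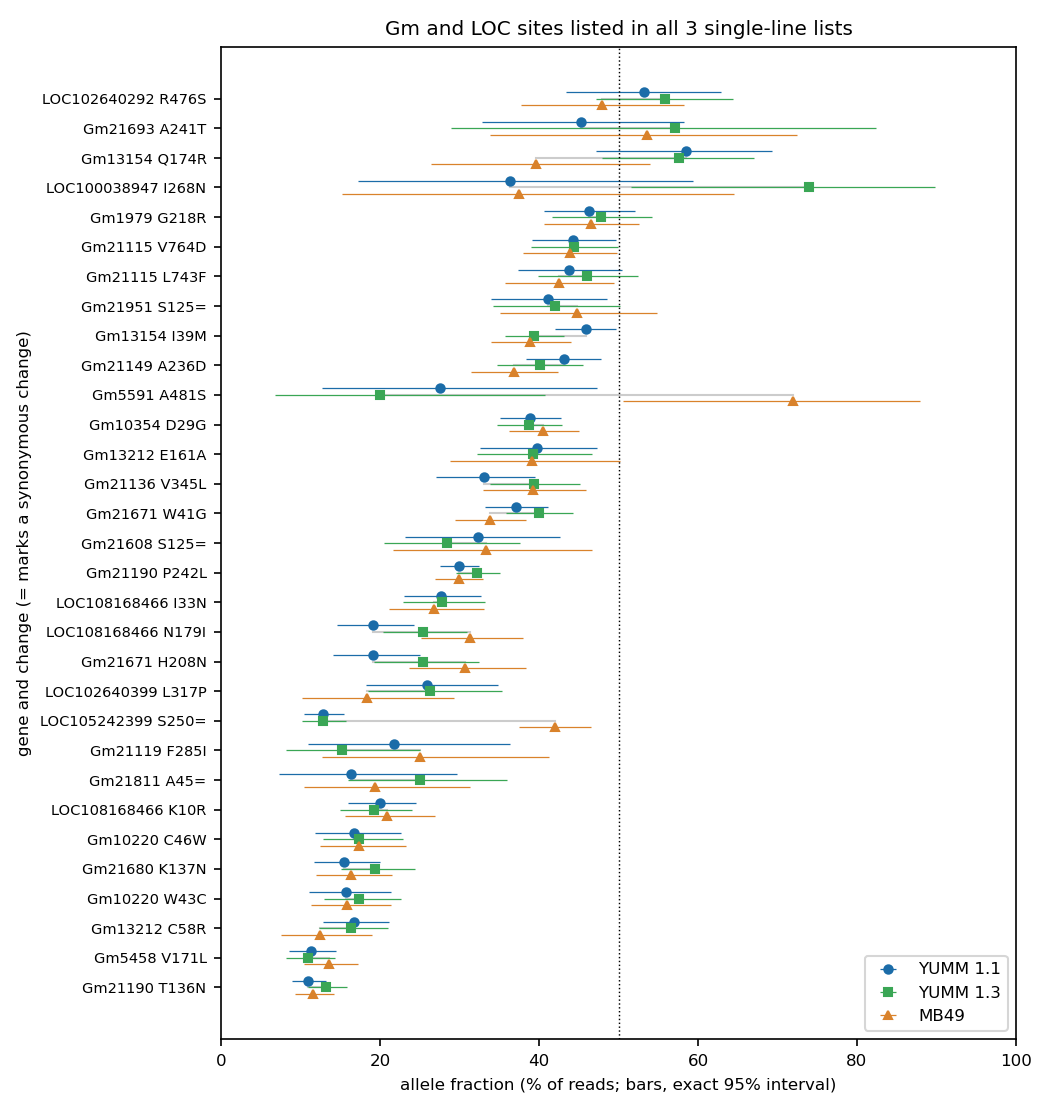
Allele fraction (percent of reads, bars showing exact 95% intervals) in YUMM 1.1, YUMM 1.3 and MB49 at the 31 Gm and LOC sites listed in all 3, ordered by mean fraction, with the dotted line at 50%. Most sites hold the same place in every line, while LOC105242399 S250= and Gm5591 A481S are far higher in MB49.

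Reads at shared sites were compared between pairs of lines by a two-sided Fisher's exact test, adjusted over all sites that the pair shares. Between YUMM 1.1 and YUMM 1.3, 0 of 49 member sites differed (3 at an unadjusted p under 0.05), where 1.03% of all shared sites did. Between YUMM 1.1 and MB49, 4 of 34 differed beside 9.38%, and between YUMM 1.3 and MB49 2 of 35 beside 4.92%. The test compares 2 libraries at a site and carries no replicate error, and a site that missed the threshold was not shown to be equal.

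LOC105242399 S250= (Gm21083, chromosome 5, position 15581691, a synonymous site) was the clearest exception. It stood at 12.8% in YUMM 1.1 (92 of 718 reads), 12.8% in YUMM 1.3 (76 of 594) and 42.0% in MB49 (196 of 467). MB49 was higher by 29.2 points than either YUMM line (Fisher's exact test, adjusted p = 7.71e-28 against YUMM 1.1 and 1.28e-25 against YUMM 1.3). All 3 libraries were deep at this site, and its near-copies number 21.

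Gm5591 A481S (chromosome 7, position 38520007) had 8 of 29 reads in YUMM 1.1, 5 of 25 in YUMM 1.3 and 18 of 25 in MB49. MB49 was again higher (Fisher's exact test, adjusted p = 0.0289 and 0.0105), at far lower depth. LOC100504180 L537F (chromosome 10, position 58223388) had 302 of 661 reads in YUMM 1.1 and 273 of 495 in MB49, a difference of 9.46 points (exact test, adjusted p = 0.0289). Spin2f N179I (X chromosome, position 31255206) had 52 of 273 reads in YUMM 1.1, 69 of 272 in YUMM 1.3 and 66 of 211 in MB49, with MB49 above YUMM 1.1 by 12.2 points (exact test, adjusted p = 0.0289). In all 4 cases MB49 had the higher fraction. At a threshold of 0.01 in place of 0.05, LOC105242399 S250= alone remained in both comparisons.

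The 2 other Spin2f sites gave no such call. Spin2f K10R had 70 of 350 reads in YUMM 1.1, 59 of 307 in YUMM 1.3 and 45 of 216 in MB49, and Spin2f I33N, 69 bases on, had 95 of 344, 84 of 302 and 60 of 224 in the same order. Both lay at more than 200 reads in each line.

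Member sites were gathered along the chromosomes. Of the 128 sites, 36 lay on chromosome 5, 17 on chromosome 7, 13 on chromosome 4 and 9 on the X, and 18 chromosomes held at least 1. Joining member sites not more than 1 Mb apart gave 13 clusters of at least 2 genes. Of these, 5 held 3 genes or more and together 47 sites. The same joining was not done for sites of other symbols, so whether members lie closer together than those was not tested.

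The 12 sites of the first cluster of chromosome 5 (14977588 to 15581691, mm10) lay in 5 Speer4-like genes, Gm10354, Gm17019, Gm21149, Gm21190 and LOC105242399, and 9 recurred between lists. Median depth over its 26 entries was 621 reads and median allele fraction 17.5%. Gm21190 alone held 5 sites, whose depth ranged from 61 reads (Q51R in YUMM 1.3) to 1353. Gm10354 D29G was at 38.9%, 38.8% and 40.5% in YUMM 1.1, YUMM 1.3 and MB49, more than 2 times the fraction of Gm10354 Y91= in either YUMM line (15.3% and 14.1%).

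The second cluster of chromosome 5 (25938769 to 26258905) held 13 sites in 7 genes, Gm10220, Gm1979, Gm21663, Gm21671, Gm21680, Gm5862 and Gm7361, with Speer4a among the 12 protein-coding genes of the interval. Again 9 sites recurred, with a median depth of 249 reads and a median fraction of 18.1% over 28 entries. Gm21671 W41G had 217 of 585 reads in YUMM 1.1, 215 of 538 in YUMM 1.3 and a fraction of 33.8% in MB49, and Gm21671 H208N was at 19.2%, 25.4% and 30.7%. For H208N the difference between YUMM 1.1 and MB49 missed the threshold (exact test, adjusted p = 0.0867).

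The third cluster of chromosome 5 (94535811 to 95521502) lay among Pramel genes, which made up 7 of its 13 protein-coding genes. It held 7 sites in 6 genes and was the only one of the 5 with a site from every line, but only 2 sites recurred. These were LOC108169101 C280F and F286S, 18 bases apart, at 12.2% and 13.0% in YUMM 1.1 and at 10.3% and 10.2% in YUMM 1.3. Pramel42 L100H (listed as Gm3139) was seen in YUMM 1.1 alone, with 5 of 14 reads, Pramel45 T90P (listed as LOC108169100) in MB49 alone, with 45 of 219, and Pramel44 I8T (listed as LOC108169097) in YUMM 1.3 alone, with 33 of 226.

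On chromosome 7 (38446907 to 38867774) 10 sites lay in Gm21115, Gm21129, Gm21136, Gm5591 and LOC105242401, and 7 recurred. The median fraction of this cluster was 40.3% over 21 entries, above that of the other 4, and the median depth 124 reads. RefSeq now gives the symbol Gm21115 to the gene listed as LOC105242401, while the sites listed under Gm21115 lie in its annotation of Gm6605, so these names have to be read as those of the lists. The cluster of chromosome 1 (85212949 to 85485116) held 5 sites in Gm2666, Gm7609 and LOC108167347, of which 1, Gm2666 V56=, recurred. RefSeq gives Gm2666 as a pseudogene and LOC108167347 as a transcribed pseudogene.

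**Figure D4:**
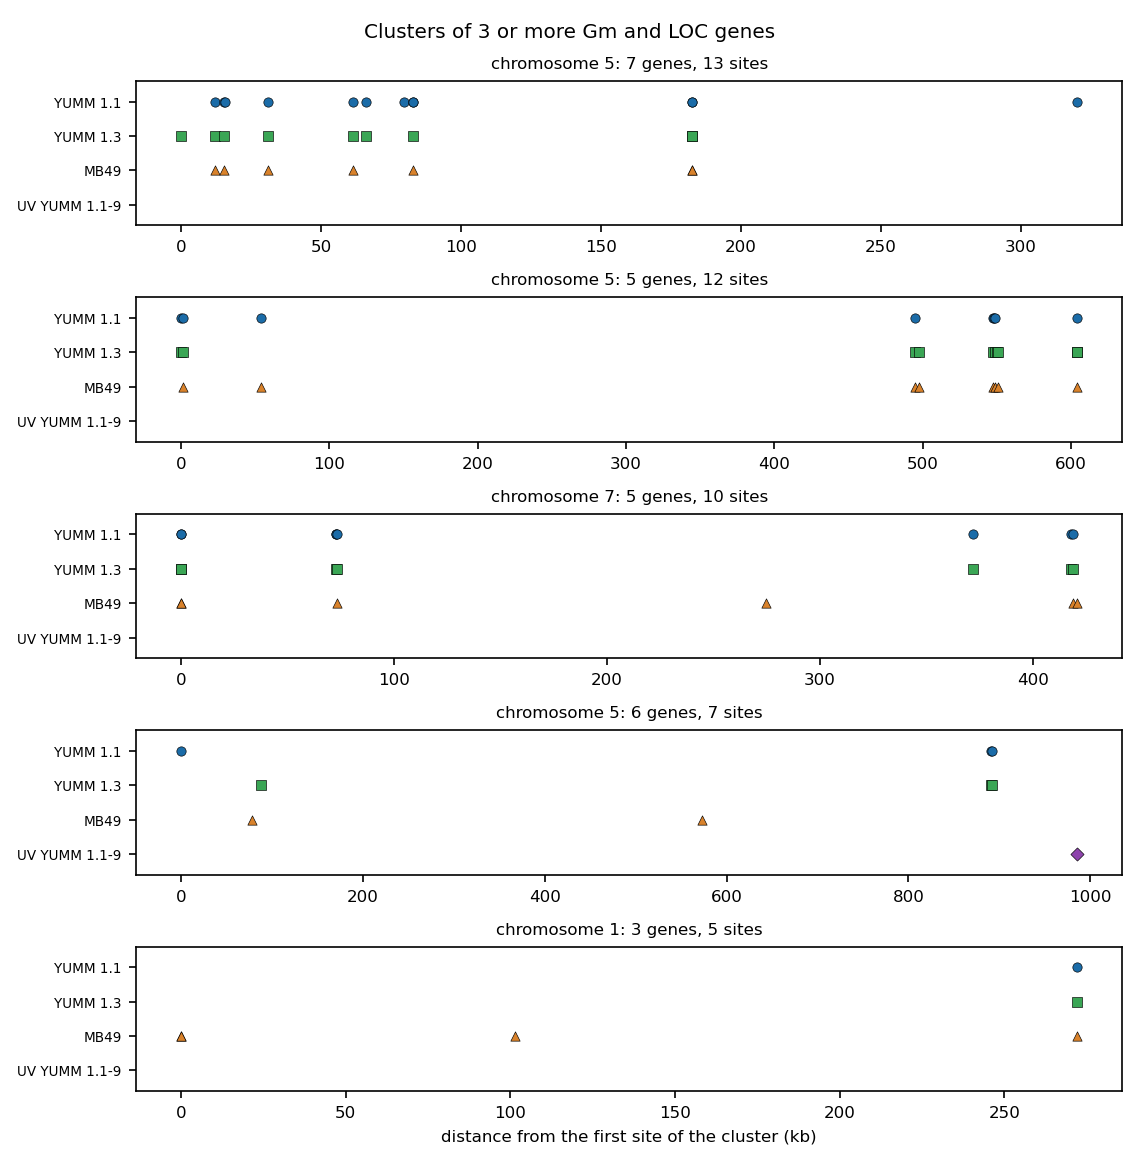
Positions of Gm and LOC sites in the 5 clusters of 3 or more genes, as distance from the first site of each cluster (kb), with 1 row per line and 1 mark per site. In the 2 clusters of Speer4-like genes and the cluster of chromosome 7 the YUMM 1.1, YUMM 1.3 and MB49 rows repeat many positions, and the only UV YUMM 1.1-9 site lies in the cluster among Pramel genes.

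Outside these clusters, several members held 3 to 5 sites in 1 gene. Sirpb1c, a signal regulatory protein gene of myeloid cells on chromosome 3 with 2 near-copies, held 5 sites, 4 of them repeated. Sirpb1c P125S had 131 of 343 reads in YUMM 1.1 and 187 of 423 in YUMM 1.3, and Sirpb1c K357= had 103 of 221 and 118 of 267. Sirpb1c T94K had 34 of 227 and 48 of 236 in the same lines. The fraction of K357= in YUMM 1.1, 46.6%, was thus far above that of T94K in the same gene and library, and of the 5 sites MB49 listed I268N alone, at 6 of 16 reads.

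Gm13212, on chromosome 4 beside zinc finger genes, also held 5 sites over the 4 lines. Gm13212 E161A had 72 of 181 reads in YUMM 1.1, 73 of 186 in YUMM 1.3 and 34 of 87 in MB49. Gm13212 C58R had 56 of 336, 49 of 300 and 18 of 144 in the same order. The first lay between 39.1% and 39.8% in every line and the second between 12.5% and 16.7%. Zfp985, farther along that chromosome and with no near-copy, had 2 sites in all 3 lists. Zfp985 I39M was deep, with 309 of 674, 270 of 685 and 145 of 373 reads, and Zfp985 Q174R less so, with 48 of 82, 64 of 111 and 21 of 53. At neither site did the reads of 2 lines differ past the threshold.

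Gm21811, on chromosome 8 and a pseudogene in RefSeq, held 4 sites at low fractions. Its A45= and R13= sites lie outside the RefSeq interval of that gene, so the pseudogene label may not apply to them. Gm21811 A45= had 8 of 49 reads in YUMM 1.1, 20 of 80 in YUMM 1.3 and 12 of 62 in MB49, and Gm21811 Y203C had 28 of 238 in YUMM 1.3 and 22 of 194 in MB49. Gm5458 V171L, on chromosome 14 in a gene with 33 near-copies, was at 11.3%, 11.0% and 13.6% in YUMM 1.1, YUMM 1.3 and MB49, with 413 to 488 reads. LOC105242449 A218V and I216M, 5 bases apart on the same chromosome, were at 46.5% and 51.5% in YUMM 1.1 and at 39.1% and 45.1% in YUMM 1.3. Gm5373 T66=, on chromosome 8, had 115 of 332 reads in YUMM 1.1 and 125 of 344 in YUMM 1.3.

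Sites also came close together within a gene. Pairs of neighbouring member sites at most 150 bases apart, about a read's length or less, numbered 20 in 18 genes, or 30 when counted in each list. Such pairs were not counted among sites of other symbols. The allele fractions of the member pairs differed by a median of 5.75 points and by at most 29.2. Gm10220 W43C and C46W, 9 bases apart, had 33 of 210 and 33 of 198 reads in YUMM 1.1, 44 of 253 and 41 of 236 in YUMM 1.3, and 35 of 221 and 36 of 207 in MB49. These 6 fractions lay between 15.7% and 17.4%. Gm21115 V764D and L743F, 62 bases apart, were at 44.3% and 43.8% in YUMM 1.1, 44.4% and 46.1% in YUMM 1.3 and 43.9% and 42.5% in MB49. By contrast Gm13212 E161A and Q114K, 142 bases apart, were at 39.2% and 10.1% in YUMM 1.3. Whether neighbouring changes lay on the same molecules is not recorded in the lists.

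The same codon change stood in 2 members of one family. Gm21608 and Gm21951 both carried S125=, a synonymous change of tcA to tcT, in all 3 single-line lists. Gm21608 had 31 of 96, 33 of 116 and 20 of 60 reads in YUMM 1.1, YUMM 1.3 and MB49, and Gm21951 had 76 of 185, 66 of 157 and 47 of 105. The Gm21608 site lies in the RefSeq annotation of Btbd35f25, and Gm21951 is Btbd35f21, genes of one X-linked BTB domain family.

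By predicted consequence, 82 of the 128 member sites were missense (64.1%, exact interval 55.1 to 72.3), 43 synonymous, 2 stop gains and 1 a retained stop. Over all 1844 sites 67.3% were missense and 3.58% stop gains. Missense changes made up 42 of the 56 repeated members (75%, 61.6 to 85.6) and 40 of the 72 unrepeated ones (55.6%, 43.4 to 67.3). The 72 include all 18 UV YUMM 1.1-9 members (9 missense), whose list holds only changes additional to YUMM 1.1. The intervals overlap, which does not show the shares to be equal, and the difference was not tested. Near a splice site lay Gm10220 C46W, in all 3 single-line lists, and Gm11487 G135=, at 71 of 143 reads in MB49.

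SIFT, which grades a missense change by conservation of the residue, gave a class for 52 of the 82 missense members (63.4%), and for 89.0% of all missense sites. Of those 52, 40 were called tolerated (76.9%, 63.2 to 87.5), beside 505 of 1104 over all sites (45.7%, 42.8 to 48.7). Among repeated members it was 23 of 27, and among unrepeated ones 17 of 25. The 25 include 8 of UV YUMM 1.1-9, of which 6 were called tolerated. The 30 missense members without a class are not described by these shares. Gm21671 W41G was among the repeated sites called deleterious.

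Both stop gains were in 1 list each. Gm13213 E57* (chromosome 4, position 133638596) had 127 of 221 reads in MB49 (57.5%), a level not below 50%, unlike that of most members of that list. RefSeq gives Gm13213 as a pseudogene, so the stop gain rests on the coding annotation of the list. Gm2832 E198* (chromosome 14, position 41281802) had 26 of 137 reads in UV YUMM 1.1-9 (19.0%, exact interval 12.8 to 26.6), while YUMM 1.1 had 1 alternative and 212 reference reads there.

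The members of MB49 that no other list held were of mixed levels. They numbered 34, of which 18 were below 50% by the exact binomial test and 1 above, and their median fraction was 30.9%. Over all sites of the MB49 list 22.6% were below and 1.98% above, with a median of 45.7%. Sites of other symbols that MB49 alone held were not summarised apart. Among the 34 members, fractions spread widely. The lowest was Morf4l1b A198V (listed as Gm6747), at 10.2% (11 of 108 reads), and Morf4l1b Y200D, 5 bases on, was at 15.9%. At the upper end were Gm8700 V64E at 59.0% (85 of 144 reads), Spopfm2 S284= at 55.4% (98 of 177) and Tmem267 T142= at 57.4% (27 of 47). The highest was LOC102638085 A2498=, at 60.5% (23 of 38 reads), in a gene that RefSeq gives as a long noncoding RNA.

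UV YUMM 1.1-9 had 18 member sites among 653, or 2.76% of its list (exact interval 1.64 to 4.32). In YUMM 1.1 members were 15.2% of the list, in YUMM 1.3 26.7% and in MB49 10.2%. With the floor that the other lists keep, 5 alternative reads and an allele fraction of 10%, 8 of the 18 were left. How many of all 653 sites keep this floor was not counted. The lower quartile of the allele fraction was 8.46% over the members and 10% over all sites of the list. Only 1 of its 17 genes, Gm13212, had a member site in another list, and that at other positions.

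In these 18 sites UV YUMM 1.1-9 had from 3 to 26 alternative reads. YUMM 1.1 had none at 14 of them and 1 at 4, with 31 to 368 reference reads; the sites were chosen for that contrast, so it was not tested. The highest fraction was that of Gm15097 R261= on the X chromosome, 9 of 47 reads (19.1%, exact interval 9.15 to 33.3), where YUMM 1.1 had 0 alternative and 139 reference reads. Gm16440 K184=, in the gene with most near-copies (35), had 25 of 175 reads, with 0 alternative and 318 reference reads in YUMM 1.1. Pramel26 S44F (listed as Gm13084) had 16 of 90 reads, with 1 and 79 in YUMM 1.1. Gm13212 L30= had 18 of 268, with 0 and 368. The lowest fraction was that of Gm3055 T19=, at 3 of 47 reads (6.38%).

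At 3 of the UV YUMM 1.1-9 sites the same change was also annotated to a named gene, because the predicted gene overlaps it. The site of Gm26741, a retained stop, is L125S in Gopc, which encodes a Golgi-associated protein, and had 7 of 84 reads. That of Gm43302 is R587Q in Gbp10, an interferon-induced guanylate-binding protein gene, with 17 of 186 reads. That of Gm42715 is H3064Q in Srcap, which encodes a chromatin remodeller, with 4 of 24 reads. The other lists themselves gave no member site to a second gene. In RefSeq, however, some of those sites lie within the span of a second gene, such as those of Morf4l1b within Lcor and that of Gm3285 within Tspear.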

How the data were processed

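One exome library per line was captured with an Agilent SureSelect kit and sequenced as paired reads of 151 bases, per the labels' protocols, to a stated mean depth of 80. Per the submitters' processing notes, FastQC, BWA 0.7.5a, GATK, Picard and SAMtools were used with build mm10; the variant caller and its filters were not given in the sources used here. Per the file headers, the deposited values are read counts of the reference and the alternative base at each site, not normalized; the UV YUMM 1.1-9 list also gives the read counts of YUMM 1.1. The sum of both counts was taken as depth, and the alternative share as allele fraction.

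Repeated rows of a position and new base were joined, keeping the placeholder symbol. Gm15433 and LOC101055758 were left out. Exact binomial and Fisher's exact tests (SciPy 1.17.1, two-sided) had p-values adjusted (Benjamini-Hochberg) over all sites of a list or all sites shared by a pair, with a threshold of 0.05; both were tested on simulated data. Intervals are exact at 95%, and like the tests cover counting error only, as reads without molecular identifiers are not independent molecules. Promoter windows from RefSeq were compared with blastn 2.17.0, a comparison chosen after the data were seen. A planned comparison of residues between related proteins was not done.

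Members and lists were chosen with earlier results of these data known. Named sites follow a rule: members in more than 1 list, with a stop or splice change, in genes with at least 3 sites, in clusters of at least 3 genes, or among the 3 deepest, highest or lowest of a list; the rest were named after their values were seen.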

Additional observations from a re-analysis of the deposited data

How the results depend on the processing

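No paired analysis was possible because each line has 1 library. For the counts and shares that answer a comparison, 52 alternative values were taken. Of these, 43 stayed within 1.5 times the main count, or for shares within the interval of the main share, and 9 did not. Some of the 43 could not have moved. Member entries numbered 215 before and after repeated rows were joined. Every site of the 3 single-line lists already met the floor of 5 alternative reads and 10%. All 18 members of UV YUMM 1.1-9 had Gm symbols, so keeping Gm symbols only removed none there. The 43 therefore overstate how many settings were a real check. With a floor of 5 alternative reads and 10%, UV YUMM 1.1-9 kept 8 members of 18, and the share of all its sites kept was not counted. At an adjusted p under 0.01, member sites that differed in reads fell to 1 from 4 between YUMM 1.1 and MB49 and to 1 from 2 between YUMM 1.3 and MB49. With sites of at most 200 reads, members below 50% numbered 21 in YUMM 1.1, 17 in YUMM 1.3 and 19 in MB49, in place of 51, 45 and 43; 32 of 65, 27 of 60 and 42 of 72 members were counted at that depth. At 3 times the list median, 16 YUMM 1.3 members were deep in place of 33. A gap of 5 Mb gave 8 clusters of 3 or more genes in place of 5. Missense changes were 70.2% of member entries over the 4 lists and 55.6% of sites in 1 list. The members' missense share was above that of all entries (70.2% against 67.8%) but below that of all distinct sites (64.1% against 67.3%). At 0.01 alone, 4 single-site calls were lost. Near-copies at 80% or 95% identity, settings added after the data were seen, gave 45 and 38 members in place of 40. Depth limits calls at sites of few reads, such as Gm5591 A481S.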
